A study of Mus musculus with 8 samples.

Results

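Lysyl oxidases are secreted, copper-dependent enzymes that oxidise lysine side chains of collagen and elastin, and the aldehydes they leave form the cross-links that stiffen the extracellular matrix. The mouse genome has 5 of them. *Lox* and *Loxl1* encode the enzymes made with a propeptide that the protease BMP1 removes, while *Loxl2*, *Loxl3* and *Loxl4* encode enzymes with scavenger receptor cysteine-rich domains ahead of the catalytic domain. *LOX* and *LOXL2* are known as targets of the hypoxia-inducible factors (HIF), and LOXL2 is known to act on type IV collagen and to bind the repressor Snail, which links the family to invasion of tumour cells.

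All genes of the deposited expression table whose symbol is *Lox*, *Loxl1*, *Loxl2*, *Loxl3* or *Loxl4* were taken, which gave 5 of 55414 genes, each on 1 row. Values are TPM, the share of transcripts that a gene contributes after correction for transcript length, so that levels of different genes can be compared. The 8 libraries came from B16F10 cells, a mouse melanoma line, after 24 h in the stated oxygen concentration, with 2 libraries per group. WT and CypD KO cells were kept at 21% O2. CypD KO cells were puromycin-selected clones after CRISPR/Cas9 targeting of *Ppif*, the gene of cyclophilin D (CypD, which controls opening of the permeability transition pore in mitochondria). Control cells held pcDNA without an insert and CypD OE cells pcDNA-CypD, and both groups were kept at 1% O2. Both were stable lines after selection with G418, for which the methods state that resistant clones were selected. Control and WT therefore differed in oxygen, vector and selection, which cannot be told apart in these data. CypD KO and WT likewise differed in *Ppif*, transfection, selection and cloning, and no such step is described for WT. An effect of *Ppif* targeting cannot be told apart from that of the clone or selection. CypD OE and Control were different selected lines, so pcDNA-CypD cannot be told apart from differences between clones. Neither the labels nor the methods say whether the 2 libraries of a group were separate cultures or clones, so the p-values measure only the spread between these libraries, which may be technical.

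The 8 libraries held approximately 25700000 to 29800000 fragments on genes, estimated from the steps between low values. *Ppif* was at 50.68 and 49.99 TPM in WT, 10.44 and 12.11 in CypD KO, 44.59 and 42.25 in Control, and 50.29 and 49.28 in the libraries labelled CypD OE. *Ppif* transcript was thus still measured in CypD KO, at 22.4% of the WT mean. The libraries labelled CypD OE were 0.19 above Control on the log2 scale (limma, adjusted p = 0.0794), so they are called by their label throughout. These values are of RNA only. At the protein level, the methods report western blots showing lack of CypD in the knockout cells and overexpression in the CypD OE cells. All 7 melanocytic markers (*Mlana*, *Pmel*, *Tyr*, *Tyrp1*, *Dct*, *Mitf*, *Sox10*) had a mean of at least 1 TPM in every group. In CypD KO against WT 1 was called higher and 5 lower (over all 13526 tested genes, 4066 and 2486). In the libraries labelled CypD OE against Control 1 was higher and 4 lower (2576 and 2481), and in Control against WT 6 were higher and 0 lower (1634 and 1635). The 5 keratinocyte markers summed to at most 0.03 TPM and the 5 endothelial markers to at most 1.2 TPM.

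The shared feature of the family is the copper-binding part of the catalytic domain, in which histidines hold the metal. It is shown here for 4 members, among them *Loxl2* and *Loxl3*, on which the results turn. Each line gives 60 coding bases, 5′ to 3′ on the gene's own strand, from the GENCODE M39 transcripts (GRCm39), with the histidine codons in capitals. In each gene the last 28 bases lie in the next exon. *Loxl1* spans exons 3 and 4 on the minus strand (chr9:58201642-58201673 and chr9:58200985-58201012). *Loxl2* spans exons 10 and 11 on the plus strand (chr14:69919756-69919787 and chr14:69926477-69926504). *Loxl3* spans exons 10 and 11 on the plus strand (chr6:83026967-83026998 and chr6:83027097-83027124). *Loxl4* spans exons 11 and 12 on the minus strand (chr19:42588316-42588347 and chr19:42587228-42587255).
Loxl1: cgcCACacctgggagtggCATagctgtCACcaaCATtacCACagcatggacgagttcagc
Loxl2: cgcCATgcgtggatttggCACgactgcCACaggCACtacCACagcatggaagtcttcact
Loxl3: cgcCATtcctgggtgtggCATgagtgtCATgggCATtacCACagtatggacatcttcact
Loxl4: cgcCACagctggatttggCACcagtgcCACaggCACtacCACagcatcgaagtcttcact

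All 4 stretches carried 5 histidine codons at the same places, and that of *Lox*, which is not printed, carried 4. *Loxl2* had the same base as *Loxl3* at 47 of the 60 positions, as *Loxl4* at 53 and as *Loxl1* at 41. Over the whole encoded protein, *Loxl2* and *Loxl3* were 56.42% identical and *Loxl2* and *Loxl4* 55.45%. No run of 31 bases in the transcripts was shared between *Loxl2*, *Loxl3* and *Loxl4*.

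*Loxl3* was the most abundant member in WT, CypD KO and the libraries labelled CypD OE, and in Control *Loxl2* reached a similar level. *Loxl2* (ENSMUSG00000034205; GRCm39 chr14:69846209-69933283, plus strand, 14 exons in the canonical transcript) ranged from 0.34 to 31.32 TPM, and *Loxl3* (ENSMUSG00000000693; chr6:83011152-83029543, plus strand, 14 exons) from 23.47 to 64.44 TPM. These were the only members with at least 1 TPM in at least 2 libraries, so 2 of the 5 entered the test. *Loxl2* met this filter only through CypD KO and Control, the groups in which it was high. Counts of called members among those tested therefore depend on the filter and are given as a description. *Loxl4*, *Loxl1* and *Lox* stayed below 0.5 TPM in every library.

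**Figure D1:**
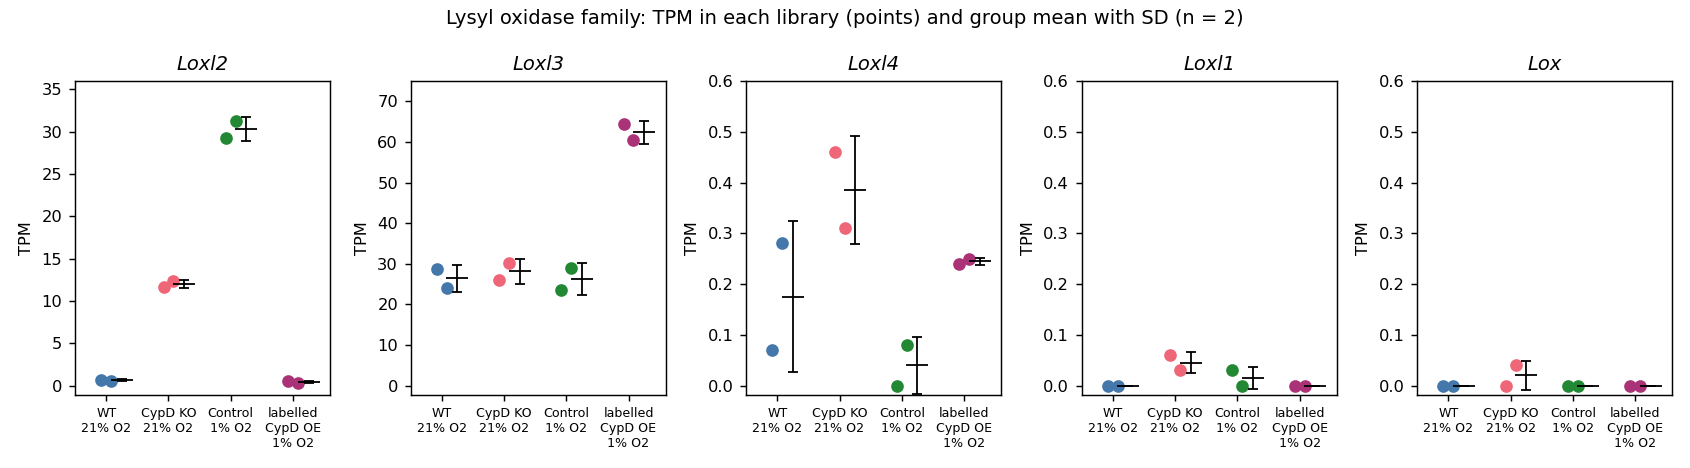
TPM of each lysyl oxidase gene in each library (points), with the group mean and SD (n = 2) as bars, on linear axes that differ between genes. *Loxl2* is high only in CypD KO (11.62 and 12.3) and Control (29.31 and 31.32), *Loxl3* is highest in the libraries labelled CypD OE (64.44 and 60.43), and the other 3 genes stay below 0.5 TPM.

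WT libraries held 0.7 and 0.59 TPM of *Loxl2*, and CypD KO libraries 11.62 and 12.3. Control libraries reached 29.31 and 31.32, and those labelled CypD OE fell to 0.52 and 0.34. The 4 groups did not overlap, and replicates lay close together beside the distance from CypD KO or Control to the low groups. The low values rested on approximately 21.2 to 39.9 fragments per library, against 689.6 to 1775.5 in CypD KO and Control.

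CypD KO was compared with WT to see the family in *Ppif*-targeted cells at 21% O2, within the limit on clone and selection given above. *Loxl2* rose from 0.645 ± 0.0778 to 11.96 ± 0.481 TPM (mean ± SD, n = 2), an 18.5-fold ratio of the means. On the log2(TPM + 1) scale, which understates changes of low genes, the increase was 2.98 (SE 0.12, limma, Benjamini-Hochberg adjusted p = 5.33e-06). It was the 43rd largest increase among 13526 genes tested. *Loxl3*, which encodes an enzyme needed for formation of the palate and spine, had 28.78 and 24.02 TPM in the WT libraries, against 25.93 and 30.25 in CypD KO. These *Loxl3* values overlapped, and the difference of 0.09 (95% interval -0.22 to 0.40, adjusted p = 0.614) did not pass the test. Thus 1 of the 2 tested members was called higher, and 0 lower, in a comparison in which 30.1% of all tested genes were called higher. Over all genes 4066 were higher and 2486 lower (3204 and 3481 after median-of-ratios rescaling).

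At 1% O2, the libraries labelled CypD OE were compared with Control to see the family in cells given pcDNA-CypD. *Loxl2* fell by 4.46 on the log2 scale (SE 0.12, limma, adjusted p = 1.52e-06), from 30.31 ± 1.42 to 0.43 ± 0.127 TPM, and its mean was 70.5-fold lower. Only 10 of the tested genes had a larger decrease. *Loxl3* moved the other way, from 23.47 and 28.93 TPM in Control to 64.44 and 60.43 TPM, a 2.38-fold higher mean. The *Loxl3* increase was 1.23 (SE 0.13, adjusted p = 0.000556), and no library of either group reached the range of the other. The count was thus 1 member higher, against 19.0% of all tested genes, and 1 lower, against 18.3%.

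Control was set beside WT to see the family at 1% and 21% O2 in cells with *Ppif* intact, within the limit on vector and selection given above. *Loxl2* was 47.0-fold higher by means in Control, with a difference of 4.25 on the log2 scale (SE 0.12, limma, adjusted p = 4.35e-06), the 6th largest increase among the 13526 genes tested. *Loxl3* was at 26.2 ± 3.86 TPM in Control and 26.4 ± 3.37 TPM in WT, a difference of -0.01 (adjusted p = 0.961) with overlapping libraries. The count was 1 member higher, where 12.1% of all tested genes were. These comparisons use the same Control or WT libraries, so their values are not independent of each other.

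**Figure D2:**
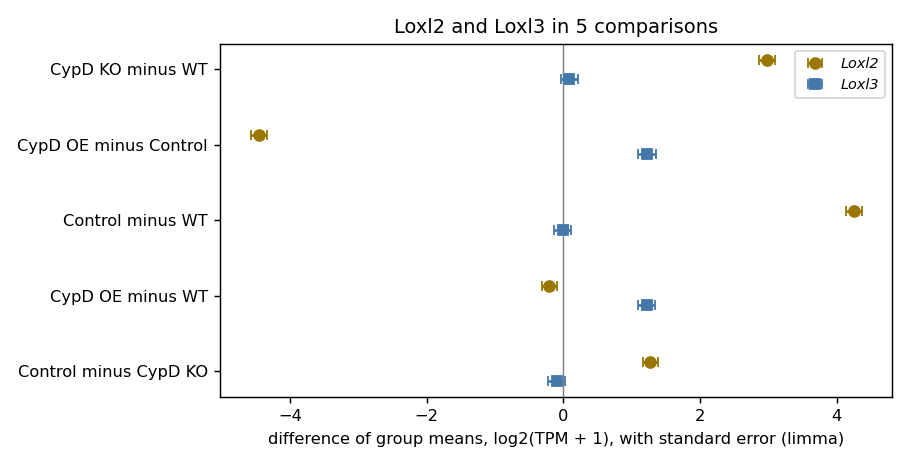
Differences of group means of *Loxl2* (circles) and *Loxl3* (squares) in log2(TPM + 1), with standard errors from limma, in 5 comparisons. *Loxl2* lies at 2.98 for CypD KO minus WT, 4.25 for Control minus WT and -4.46 for CypD OE minus Control, whereas *Loxl3* leaves 0 only in the comparisons with the libraries labelled CypD OE (1.23 and 1.22).

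In order of level, *Loxl2* was highest in Control, then CypD KO, WT and the libraries labelled CypD OE. Control exceeded CypD KO 2.54-fold by means, a log2 difference of 1.27 (SE 0.12, limma, adjusted p = 0.000205). Here 1 member was called higher in Control, against 16.5% of tested genes (2236 higher and 3709 lower, or 3042 and 2938 after rescaling), and CypD KO reached 39.45% of the Control level. The last 2 places did not differ beyond their error: the libraries labelled CypD OE lay 0.20 below WT (95% interval -0.48 to 0.07, adjusted p = 0.243), although all their values were below those of WT.

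*Loxl3* had a different order, with the libraries labelled CypD OE first at 62.44 ± 2.84 TPM. CypD KO followed at 28.09 ± 3.06 TPM, WT at 26.4 ± 3.37 and Control at 26.2 ± 3.86, and the ranges of these 3 groups overlapped. The libraries labelled CypD OE exceeded WT 2.37-fold (log2 difference 1.22, SE 0.13, limma, adjusted p = 0.00101), and 1 member was called higher, against 14.0% of tested genes. Control and CypD KO differed by -0.10 in *Loxl3* (adjusted p = 0.573).

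The summed level of the family differed less between groups than *Loxl2* did, since *Loxl3* was present throughout. The 5 genes together came to 29.55 and 24.89 TPM in WT, 38.07 and 42.93 in CypD KO, 52.81 and 60.33 in Control, and 65.2 and 61.02 in the libraries labelled CypD OE. *Loxl2* was 2.37% of the sum in WT, 29.59% ± 1.32 in CypD KO, 53.7% ± 2.54 in Control and 0.677% ± 0.17 in the libraries labelled CypD OE (mean ± SD, n = 2). The groups with the highest sums thus differed in make-up, *Loxl3* being 46.2% of the sum in Control and 98.93% in the libraries labelled CypD OE. The sums and shares are given as a description, without a test.

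**Figure D3:**
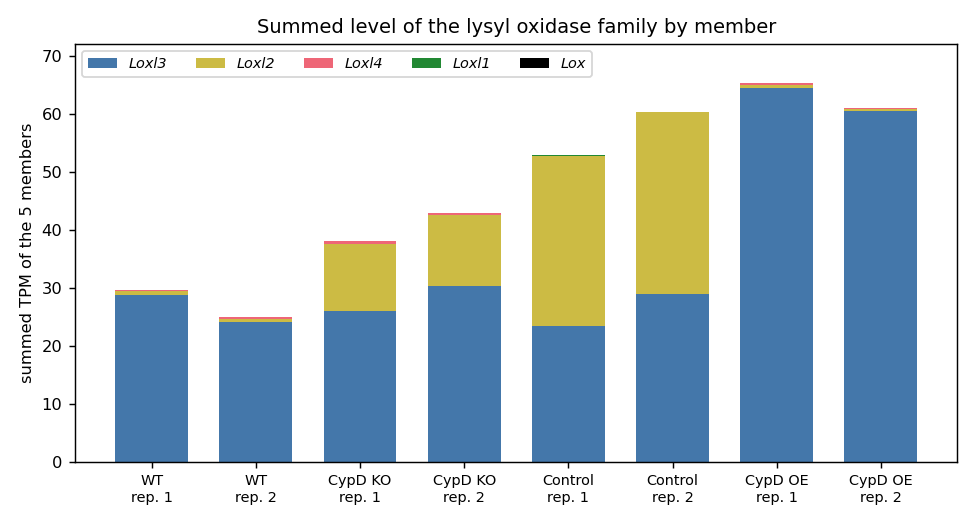
Summed TPM of the 5 lysyl oxidase genes in each library, stacked by member, on an axis that starts at 0. *Loxl2* forms a visible part of the bar only in CypD KO and Control, and in the libraries labelled CypD OE *Loxl3* alone exceeds 60 TPM.

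The remaining members were at or near 0. *Loxl4* (ENSMUSG00000025185; GRCm39 chr19:42580711-42601252, minus strand), an enzyme of the same structural class as LOXL2, was at 0.07 and 0.28 TPM in WT, 0.46 and 0.31 in CypD KO, 0 and 0.08 in Control, and 0.24 and 0.25 in the libraries labelled CypD OE. The highest of these values stood for approximately 28.2 fragments. Control had the lowest mean, 0.04 TPM, but its libraries overlapped those of WT. Without the filter on low values, over 24706 genes, *Loxl4* was 0.41 lower on the log2 scale in Control than in CypD KO (SE 0.10, limma, adjusted p = 0.0389), and its adjusted p was at least 0.168 in the other comparisons.

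*Loxl1* (ENSMUSG00000032334; GRCm39 chr9:58195014-58220495, minus strand), which encodes an enzyme needed for elastic fibres, was listed at 0.06 and 0.03 TPM in CypD KO and 0.03 in replicate 1 of Control. These values amount to at most 2.2 fragments, and the other 5 libraries were at 0. *Lox* (ENSMUSG00000024529; GRCm39 chr18:52649136-52663110, minus strand), the founding member, was at 0 in 7 libraries and at 0.04 TPM, approximately 2.0 fragments, in replicate 2 of CypD KO. Neither gene gave a value that could be compared between groups at this depth.

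The genes whose profile over the 8 libraries lay nearest to that of *Loxl2* were *Pdk1*, *Adm* and *Bnip3*. Nearness was the root-mean-square difference of log2(TPM + 1) after each gene was centred on its own mean, and it was 0.284, 0.442 and 0.484, while the profile of *Loxl2* itself had a root-mean-square of 1.914. *Pdk1*, a kinase that restrains pyruvate dehydrogenase, was at 7.35 and 7.26 TPM in WT and 63.35 and 60.39 in CypD KO. It was at 101.13 and 113.09 TPM in Control and 6.6 and 3.19 in the libraries labelled CypD OE, so its groups stood in the same order as those of *Loxl2*. *Adm* (adrenomedullin, a vasodilator peptide) and *Bnip3* (a mitophagy receptor) were also high in CypD KO and Control only.

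For *Loxl3* the nearest were *Gm18251* and *Gm49927*, both at 0.124, and *Cdhr4* at 0.149, against a root-mean-square of 0.529 for *Loxl3* itself. *Gm18251* and *Gm49927* had the same values in every library, 0 in 6 of them and 1.41 and 1.42 TPM in those labelled CypD OE. *Cdhr4*, a member of the cadherin-related genes, had 15.73 and 16.22 TPM in the WT libraries, against 38.08 and 41.52 in those labelled CypD OE. The genes nearest to *Loxl2* and *Loxl3* were picked for their likeness to the member, so sharing its pattern is no separate result. *Gm18251* and *Gm49927*, with low and identical values, do not count as separate observations.

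**Figure D4:**
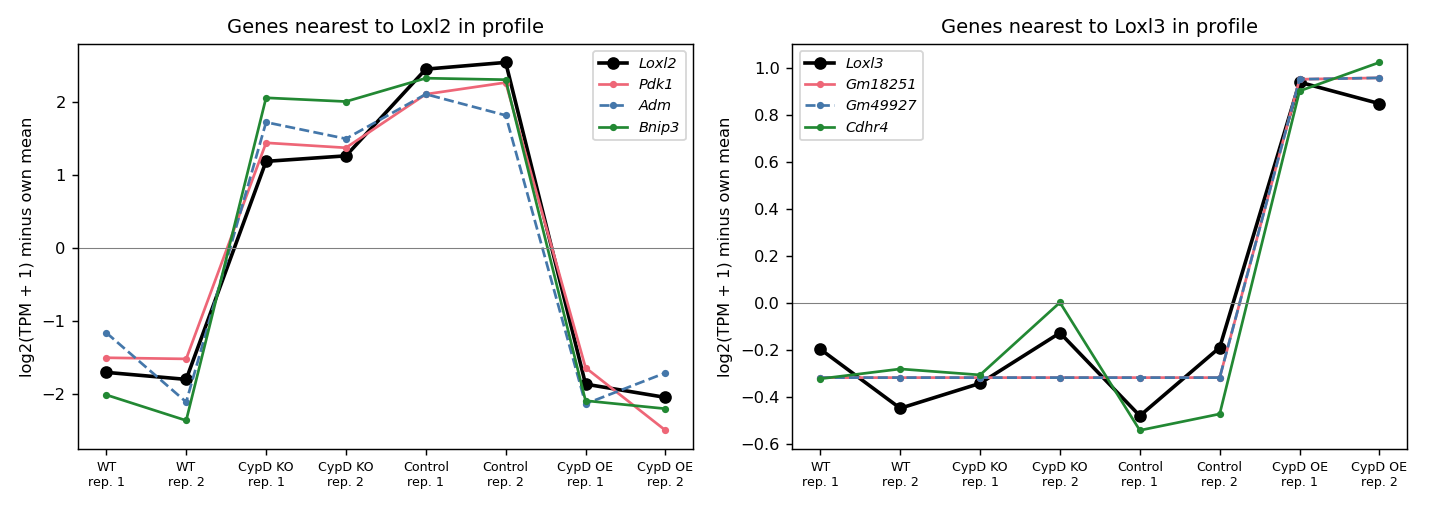
Centred log2(TPM + 1) of *Loxl2* (left) and *Loxl3* (right) and of the 3 genes nearest to each, in each of the 8 libraries. *Loxl2* and *Pdk1* run together with a root-mean-square difference of 0.284, and *Loxl3* and its nearest genes rise only in the libraries labelled CypD OE. The genes shown were picked for this likeness.

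*Loxl2* was compared with 10 genes known as HIF targets (*Vegfa*, *Bnip3*, *Pdk1*, *Ankrd37*, *Car9*, *Egln3*, *Ndrg1*, *P4ha1*, *Ero1a*, *Slc2a1*). Of these, 9 rose and 1 fell in CypD KO against WT, all 10 rose in Control against WT, and all 10 fell in the libraries labelled CypD OE against Control. Over all tested genes, 30.1% were called higher in the first comparison, 12.1% higher in the second and 18.3% lower in the third. Their median log2 changes were 1.948, 1.996 and -1.994, where the medians over all genes were 0.09, 0.01 and 0.00. *Bnip3*, the member with the largest change in each comparison, changed by 4.22, 4.51 and -4.47 (limma, adjusted p = 1.17e-06, 2.48e-06 and 1.21e-06). *Loxl2* changed by more than the list's median in all 3 comparisons. In CypD KO it reached 39.45% of its Control level, less than any of the 10 genes, of which *Car9* was lowest at 48.29% and *Vegfa* highest at 131.8%. In the libraries labelled CypD OE it stood at 1.42% of Control, again below all 10, which ranged from 4.22% for *Bnip3* to 40.92% for *Ndrg1*. Of 7 genes of HIF subunits and their hydroxylases 5 were tested. In CypD KO against WT 2 rose (*Egln1* by 1.62, *Arnt* by 0.31) and 0 fell, while *Hif1a* differed by 0.08 (limma, adjusted p = 0.24). In the libraries labelled CypD OE against Control 2 rose and 2 fell, where 19.0% and 18.3% of all tested genes did. There *Hif1a* fell by 0.47 (limma, adjusted p = 0.000609) and *Egln1* by 2.16, while *Epas1* rose by 1.13 (adjusted p = 0.00127) and *Egln2* by 0.39.

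Both abundant members overlap genes on the other strand, and the sources used here do not state whether the counting used strand. *Loxl3* ends inside *Htra2*, a mitochondrial serine protease gene on the opposite strand, and 1182 bases (28.83%) of its canonical transcript lie in exons of *Htra2*. *Htra2* had 85.67 and 92.42 TPM in the Control libraries, against 133.15 and 130.5 in those labelled CypD OE. The increase was 0.56 (SE 0.05, limma, adjusted p = 0.000284), or 1.48-fold, in the same comparison in which *Loxl3* rose 2.38-fold. *Htra2* did not pass the test between CypD KO and WT (-0.05, adjusted p = 0.476), where *Loxl3* did not either. It was, however, lower in Control than in WT (-0.24, adjusted p = 0.017) and than in CypD KO (-0.19, adjusted p = 0.0218), where *Loxl3* did not pass, and higher in the libraries labelled CypD OE than in WT (0.33, adjusted p = 0.00436), where *Loxl3* rose. The part of shared reads in the *Loxl3* result was not tested.

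On its other side *Loxl3* begins 695 bases from *Dok1*, a signalling adaptor gene that is read in the opposite direction. *Dok1* was at 15.52 and 13.35 TPM in WT, 21.96 and 20.17 in CypD KO, 7.85 and 8.58 in Control, and 12.59 and 14.46 in the libraries labelled CypD OE. It rose by 0.66 in the libraries labelled CypD OE against Control (limma, adjusted p = 0.00373), and in CypD KO against WT by 0.52 (adjusted p = 0.00709), where *Loxl3* did not pass the test. Against WT, the libraries labelled CypD OE differed by -0.09 in *Dok1* (adjusted p = 0.595), whereas *Loxl3* was 2.37-fold higher.

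The protein-coding neighbours of *Loxl2* held a narrow range of levels. *R3hcc1*, whose exons cover 943 bases (17.74%) of the *Loxl2* transcript on the opposite strand, stayed between 10.96 and 16.73 TPM, and *Entpd4b*, 23240 bases away, between 6.3 and 8.17 TPM. *R3hcc1* differed by 0.06 (limma, adjusted p = 0.755) in CypD KO against WT and by 0.39 (adjusted p = 0.0552) in the libraries labelled CypD OE against Control, the latter with a sign opposite to that of *Loxl2*. *Entpd4b* fell by 0.31 in the libraries labelled CypD OE against Control (adjusted p = 0.0262). A pseudogene on the same chromosome, *Gm21451* (GRCm39 chr14:69628303-69717736), shares 2318 of the 5286 runs of 31 bases (43.85%) in the *Loxl2* transcript. It was listed at 0 in all 8 libraries, so a division of reads between it and *Loxl2* left no value on the pseudogene.

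**Figure D5:**
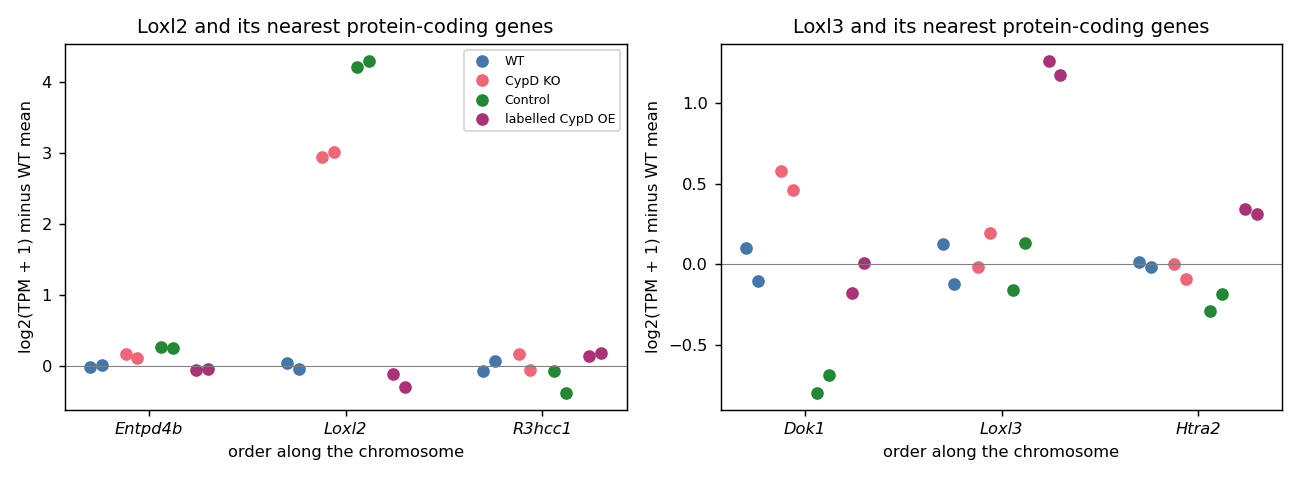
Log2(TPM + 1) of *Loxl2* (left) and *Loxl3* (right) and of the nearest protein-coding gene on each side, relative to the WT mean of each gene, with 1 point per library and genes in their order along the chromosome. *Loxl2* moves by 4.25 in Control while *Entpd4b* and *R3hcc1* stay within 0.5 of WT, and *Htra2* is highest in the libraries labelled CypD OE, as *Loxl3* is.

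Of 8 genes of collagen chains and elastin, the substrates of the family, 5 were tested, and 2 rose, 1 fell and 2 did not pass in CypD KO against WT, with a median of -0.23. Over all 13526 tested genes, 30.1% were called higher and 2486 genes lower. *Col1a1* rose by 3.80 (limma, adjusted p = 2.29e-05), from 2.22 and 1.66 TPM to 38.52 and 41.12 TPM, and *Col5a1* by 2.26 (adjusted p = 2.77e-05). *Col1a2*, which encodes the partner chain of *Col1a1* in type I collagen, fell by 1.79 (adjusted p = 0.00176). *Col4a1* and *Col4a2*, the type IV collagen chains, differed by -0.34 and -0.23 (adjusted p = 0.124 and 0.0894).

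In the libraries labelled CypD OE against Control, 1 substrate gene rose, 2 fell and 2 did not pass, where 19.0% of all tested genes rose and 18.3% fell. *Col4a1* rose by 0.66 (limma, adjusted p = 0.018), while *Col1a2* fell by 1.54 (adjusted p = 0.00482) and *Col1a1* by 1.44 (adjusted p = 0.00237). In Control against WT, where *Loxl2* was 47.0-fold higher, none of the 5 passed (0 by limma, and 0 at an unadjusted p under 0.05), their median being 0.35. Of all 13526 tested genes, 12.1% were called higher there and 1635 genes lower. *Eln*, *Col3a1* and *Col5a2* were at or below 0.31 TPM in every library.

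Of 14 genes that mature or anchor lysyl oxidases and collagen fibrils 9 were tested, and in CypD KO against WT 7 rose and 2 fell, with a median of 1.91. Over all genes the median was 0.09, and 30.1% were called higher. The largest changes were those of *Thbs1* (3.26), *Fn1* (3.23), *Pcolce2* (3.18) and *Adamts14* (2.56), with limma adjusted p between 6.54e-07 and 9.68e-05. *Pcolce2* would not have met the filter on low values without CypD KO. *Bmp1*, whose product cleaves the propeptides of LOX and LOXL1, was picked after its values were seen. It went from 5.45 and 4.71 TPM to 18.07 and 19.41 TPM (1.70, limma, adjusted p = 7.27e-05), while *Lox* and *Loxl1* themselves stayed near 0. The genes that fell, also picked after their values were seen, were *Fbln5*, an elastic fibre protein (by 1.05, adjusted p = 2.85e-05), and *Pcolce*, an enhancer of procollagen cleavage (by 0.51, adjusted p = 0.00706).

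The same list split in the other comparisons. In the libraries labelled CypD OE against Control 2 genes rose, 2 fell and 5 did not pass, and in Control against WT 2 rose, 3 fell and 4 did not pass. Of all 13526 tested genes, 19.0% rose and 18.3% fell in the former, and 12.1% rose and 1635 genes fell in the latter. *Fbln5* fell by 1.74 in the former (limma, adjusted p = 5.63e-06), and rose by 0.68 in the latter (adjusted p = 0.000629). *Fn1*, the fibronectin gene, rose in both, by 0.51 (adjusted p = 0.000524) and 0.55 (adjusted p = 0.000802). *Thbs1*, the thrombospondin-1 gene, rose by 1.10 in the former (adjusted p = 3.4e-05) and fell by 0.50 in the latter (adjusted p = 0.00195). *Postn* fell by 0.37 in the former (adjusted p = 0.0151) and *Bmp1* by 0.46 in the latter (adjusted p = 0.0411).

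The enzymes that modify collagen lysines inside the cell, before lysyl oxidases act on them outside, were tested for 4 of 5 genes. All 4 rose in CypD KO against WT, with a median of 0.87, and in Control against WT 2 rose and 2 did not pass. In the libraries labelled CypD OE against Control 1 rose and 3 fell. Over all tested genes, 30.1%, 12.1% and 19.0% were called higher in these comparisons, in that order, and 18.3% lower in the last. *Plod2*, the lysyl hydroxylase of collagen telopeptides, rose by 1.07 and 1.35 and fell by 1.45 in these comparisons (limma, adjusted p = 1.93e-05, 3.03e-05 and 8.66e-06). Its TPM was 88.32 and 94.24 in WT, 194.1 and 191.08 in CypD KO, 233.87 and 235.65 in Control, and 90.07 and 80.62 in the libraries labelled CypD OE. *Plod1* rose and fell in the same comparisons (0.85, 0.99 and -0.89). The galactosyltransferase gene *Colgalt1* was, like *Loxl3*, higher in the libraries labelled CypD OE than in Control (0.71, adjusted p = 0.000448), and unlike *Loxl3* it was also higher in CypD KO than in WT (0.89, adjusted p = 0.0001).

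Copper reaches lysyl oxidases in the secretory pathway through the chaperone ATOX1 and the pump ATP7A. Of 6 copper genes 5 were tested, and 1 rose and 2 fell in CypD KO against WT, 0 rose and 2 fell in the libraries labelled CypD OE against Control, and 1 rose and 0 fell in Control against WT. Over all tested genes, 30.1%, 19.0% and 12.1% were called higher in these comparisons, in that order. Called lower were 2486, 2481 and 1635 of the 13526 genes. *Atp7a* was at 38.35 and 40.16 TPM in WT, 42.02 and 39.35 in CypD KO, 52.2 and 51.63 in Control, and 32.9 and 28.37 in the libraries labelled CypD OE. It fell by 0.75 in the latter against Control (limma, adjusted p = 0.000486), as *Atox1* did by 0.41 (adjusted p = 0.00833), and it rose by 0.40 in Control against WT (adjusted p = 0.0118). In CypD KO against WT *Atp7a* did not pass (0.05, adjusted p = 0.626), whereas the copper transporter gene *Slc31a2* rose by 1.14 (adjusted p = 0.00115) and *Slc31a1* fell by 0.44 (adjusted p = 0.00195).

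Of the copper amine oxidases outside the family, *Aoc2* alone was tested, at 2.48 to 4.37 TPM over the libraries. It rose by 0.45 in CypD KO against WT (limma, adjusted p = 0.0372), and did not pass in Control against WT (0.35, adjusted p = 0.121) or in the libraries labelled CypD OE against Control (0.09, adjusted p = 0.65). *Aoc1* and *Aoc3* were at or below 0.39 TPM.

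Snail, the repressor that LOXL2 is known to bind, was close to absent at the RNA level, *Snai1* being at or below 0.18 TPM in every library. *Snai2*, its relative Slug, was at 4.44 and 4.37 TPM in WT, 20.19 and 19.56 in CypD KO, 5.5 and 5.99 in Control, and 11.61 and 10.65 in the libraries labelled CypD OE. Of 8 genes of the Snail and epithelial-mesenchymal transition list 4 were tested, and 3 were higher and 0 lower in CypD KO against WT. In the libraries labelled CypD OE against Control 2 were higher and 0 lower, and in Control against WT 2 were higher and 1 lower. Over all tested genes, 30.1%, 19.0% and 12.1% were called higher in the 3 comparisons, in that order. Called lower were 2486, 2481 and 1635 of the 13526 genes. *Snai2* was among the higher genes each time (1.95, 0.85 and 0.32, with limma adjusted p = 9.49e-06, 0.000506 and 0.0406). Hence *Snai2* rose in the libraries labelled CypD OE, where *Loxl2* fell.

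Markers of other cell types were checked beside these results. The 8 fibroblast markers summed to 2.98 to 3.22 TPM in WT, 7.18 to 10.08 in CypD KO, 2.49 to 3.08 in Control and 1.73 to 2.07 in the libraries labelled CypD OE, and most of the CypD KO sum was *Acta2* (4.96 and 7.99 TPM, 0 elsewhere). Of the fibroblast markers tested in CypD KO against WT, *Acta2* was called higher (limma, adjusted p = 9.35e-05) and *Pdgfrb* lower (-0.70, adjusted p = 0.00794). *Acta2* met the filter on low values only through CypD KO. *Dcn* and *Thy1* were at 0 in every library, whereas *Pdgfra* was at 0.48 to 1.02 TPM and *Pdgfrb* at 1.07 to 2.5 TPM. *Lum*, *Fap* and *Col6a3* were at or below 0.23 TPM in every library.

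The 6 macrophage markers summed to 3.67 to 4.48 TPM in WT, 24.18 to 25.26 in CypD KO, 4.68 to 4.9 in Control and 1.15 to 1.98 in the libraries labelled CypD OE, with *Adgre1* at 0 throughout. In CypD KO the sum was mostly *Cd68* (21.85 and 23.33 TPM), which rose by 2.36 against WT (limma, adjusted p = 5.5e-05), as *Lyz2* did by 1.03 (adjusted p = 0.0122). *Lyz2* met the filter on low values only through CypD KO. The other markers of the list stayed near 0, *Ptprc* at or below 0.02 TPM, *Itgam* 0.06 and *Csf1r* 0.41 in every library. *Cd68* fell by 1.14 in the libraries labelled CypD OE against Control (adjusted p = 0.00205), where *Loxl2* fell. In Control against WT, where *Loxl2* rose, *Cd68* did not pass (0.26, adjusted p = 0.3). The part of these markers in the results on *Loxl2*, *Col1a1* and *Bmp1* was not tested. In such bulk samples, more cells with a transcript and more transcript per cell cannot be told apart.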

How the data were processed

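RNA-seq libraries of 8 B16F10 samples in 4 groups were used. The authors used cutadapt 3.4 for trimming, STAR 2.7.8a for alignment to the Ensembl GRCm39 genome, and RSEM 1.3.1 for quantification, per the labels and the methods. They deposited TPM to 2 decimals for 55414 genes, and tested counts with DESeq2 1.26.0, which were not used here. TPM is relative, so a change in abundant transcripts moves all values. All table columns had a sample (0 without). Of the gene identifiers, 54749 (98.8%) were in GENCODE M39.

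Here log2(TPM + 1) of the 13526 genes that reached 1 TPM in 2 or more libraries was fitted with limma 3.58.1 (R 4.3.3; lmFit, eBayes with trend), with 4 group means sharing 1 variance estimate over the 8 libraries. Tests were two-sided, adjusted by the Benjamini-Hochberg procedure over all genes tested, with a threshold of 0.05, and were tested on simulated data. Fold values are ratios of mean TPM.

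TPM keeps no depth, so the worth of 1 fragment was estimated from the steps of low values. It was 0.082 to 0.0975 TPM at 1000 bases, and 83.37% to 86.22% of low values lay within 0.15 of a whole fragment, against 30% for evenly spread values. Fragment numbers are therefore approximate.

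Members, gene lists and comparisons were chosen with earlier results of these data known. The named genes are all members, the 3 nearest profiles, the nearest protein-coding gene on each side of the tested members, and genes that overlap *Loxl2* or share its sequence. Of each list they are up to 4 genes with the largest change past the threshold, or all genes of lists of up to 8, with exceptions marked in the text. Some of these genes are also given in comparisons where they did not pass. Sequences came from GENCODE M39 transcripts, and loci and overlaps from its annotation (Python 3.11.15, Biopython 1.88). Alternatives were a pseudocount of 0.1, no filter, a 5 TPM filter, rescaling by median-of-ratios size factors, no trend, fits of the 4 libraries compared, a replicate block and leaving out each replicate.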

Additional observations from a re-analysis of the deposited data

How the results depend on the processing

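The called changes of *Loxl2* and *Loxl3* kept their direction and stayed past the threshold under all 15 alternatives each. *Loxl2* ranged from 2.89 to 4.02 in CypD KO against WT, from -5.86 to -4.36 in the libraries labelled CypD OE against Control, from 4.20 to 5.36 in Control against WT and from 1.23 to 1.36 in Control against CypD KO. The largest values came with a pseudocount of 0.1, except in Control against CypD KO, where they came with median-of-ratios rescaling. *Loxl3* ranged from 1.08 to 1.37 in the libraries labelled CypD OE against Control and from 1.09 to 1.34 against WT. The difference of *Loxl2* between the libraries labelled CypD OE and WT never passed (adjusted p 0.112 to 0.597).

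Differences of *Loxl3* near 0 changed sign and passed in no setting. CypD KO minus WT was -0.022 after median-of-ratios rescaling, and ranged from -0.038 to 0.213 when each replicate was left out. Control minus WT ranged from -0.158 to 0.133 and Control minus CypD KO from -0.246 to 0.045 in the same way.

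With no filter, 2 members were called between Control and CypD KO instead of 1, the second being *Loxl4*, which was lower in Control. Of all 24706 genes in that setting, 2047 were called higher and 3717 lower in Control. Over all genes, 3269 were called in Control against WT, 1981 in a fit of those 4 libraries and 2009 to 2900 when a replicate was left out, the lower counts without any of the 4 libraries compared. In the libraries labelled CypD OE against WT 3744 were called, and 2295 to 3558 without a replicate, with 2423 without WT replicate 1, 2359 without CypD OE replicate 1 and 2295 without CypD OE replicate 2. A fit that leaves a group with 1 library takes that library to vary like the other groups.

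The replicate numbers were not shown to pair libraries (correlation of deviations 0.108 for CypD KO and WT, and -0.002 for the libraries labelled CypD OE and Control). With the replicate block, the adjusted p was 4.38e-05 for *Loxl2* in CypD KO against WT, 2.07e-05 for *Loxl2* and 0.00181 for *Loxl3* in the libraries labelled CypD OE against Control. The block changed no call of a member, and 6285 genes were called in CypD KO against WT instead of 6552. Depth limits *Loxl4*, *Loxl1* and *Lox*, which rest on at most 28.2 fragments per library.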
